A study of Mus musculus with 20 samples.

Results

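Cldn5, Cdh5, Pecam1, Flt1, Kdr and Tek are marker genes of endothelial cells, and Pdgfrb and Rgs5 are marker genes of pericytes. Their DNA methylation was examined in mouse brain material in which microglia, the immune cells that live in brain tissue, had been enriched. The 8 genes were chosen by cell type, among 21887 protein-coding genes of the RefSeq table (GRCm38.p6, the assembly also called mm10). A gene region was the gene with 1 kb either side. The 8 regions held 461 of the 1151247 CpG positions listed at 13 months and 486 of the 1234494 listed at 3 months, and 460 were listed at both ages. A CpG position is 1 cytosine of a CG pair, and the strands of a pair were listed apart.

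Methylation was read by reduced representation bisulfite sequencing, in which an enzyme digest leaves mainly CpG-rich stretches of DNA to be read. There were 8 libraries of HEM mice aged 13 months, 4 of WT mice aged 13 months, 4 of HEM mice aged 3 months and 4 of WT mice aged 3 months. HEM mice overexpressed full-length human wild-type α-synuclein, known for its aggregates in Parkinson disease, from a transgene on the X chromosome under the murine Thy-1 promoter, which is best known for its activity in neurons, and WT mice were controls without it. The background of both was B6D2F1/J, and 1 of the 13-month HEM libraries carries no strain label. The study's own text counts 3 WT mice at 3 months, whereas 4 libraries are labelled so, and all 4 were used. The material was enriched brain homogenate, so neurons, glia and vessel cells may remain in it. The percentages were deposited without read counts, so the depth behind each is unknown.

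Endothelial cells line the vessels of the brain and close the gaps between themselves with tight and adherens junctions, which is the basis of the blood-brain barrier. Pericytes sit on the outer wall of the capillaries and are kept there by platelet-derived growth factor signalling. CpG-rich gene starts are usually free of methylation in many cell types, while methylation inside genes and at regulatory elements differs more between cell types. In a homogenate each percentage averages over all cells, so a change in the share of a cell type and a change of methylation per cell cannot be told apart.

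The starts of Flt1 and Kdr carried little methylation, and the start of Tek holds few CG pairs. Their RefSeq promoters, 250 bases before to 50 after the start, are printed from the 5′ end of the gene's own strand with every CG in capitals, to show how differently CG pairs are packed at these starts.
Flt1, chr5:147725962-147726261, minus strand: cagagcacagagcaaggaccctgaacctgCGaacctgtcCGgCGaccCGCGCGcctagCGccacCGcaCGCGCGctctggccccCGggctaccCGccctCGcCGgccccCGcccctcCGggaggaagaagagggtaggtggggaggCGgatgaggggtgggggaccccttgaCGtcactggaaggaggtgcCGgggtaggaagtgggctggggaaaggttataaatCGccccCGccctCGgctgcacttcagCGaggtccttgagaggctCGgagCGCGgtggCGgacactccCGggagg
Kdr, chr5:75978406-75978705, minus strand: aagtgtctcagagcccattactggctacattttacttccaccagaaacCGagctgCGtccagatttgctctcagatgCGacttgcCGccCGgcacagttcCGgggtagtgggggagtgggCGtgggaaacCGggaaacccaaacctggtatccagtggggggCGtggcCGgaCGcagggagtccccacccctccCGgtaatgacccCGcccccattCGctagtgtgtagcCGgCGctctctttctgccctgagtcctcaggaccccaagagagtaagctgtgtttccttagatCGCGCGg
Tek, chr4:94739039-94739338, plus strand: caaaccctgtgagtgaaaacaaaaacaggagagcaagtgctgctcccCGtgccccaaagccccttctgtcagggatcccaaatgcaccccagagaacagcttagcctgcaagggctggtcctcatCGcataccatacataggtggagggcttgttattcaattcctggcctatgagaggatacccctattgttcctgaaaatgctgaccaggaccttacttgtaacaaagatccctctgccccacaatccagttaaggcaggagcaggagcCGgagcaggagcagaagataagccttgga

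The promoter table held 5 of the 8 genes. Flt1 has 29 CG pairs in its 300 bases, Kdr 19, Cldn5 12, Rgs5 6 and Tek 3, against a median of 7 over 32851 promoters. In the Flt1 promoter 17 positions were listed, with means over the 20 libraries of 0.0840% to 1.42%, and no library exceeded 7.04% at any of them. In the Kdr promoter 5 positions were listed, with means of 0.0467% to 0.293%. No position was listed in the promoters of Cldn5, Rgs5 and Tek. Searched on both strands, GGGCGG occurs 3 times in the Flt1 promoter, 2 times in that of Kdr and 1 time in that of Cldn5, and 35.7% of all promoters hold it. TATAAA occurs 1 time in the Flt1 promoter and is held by 13.6% of all promoters, and CCGGAA occurs 1 time in the Kdr promoter and is held by 14.9%.

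Cldn5, which encodes the claudin that dominates the tight junctions of brain endothelium, lies on chromosome 16 at 18776847-18778262 and had 65 positions at each age. The gene region was nearly unmethylated. Its level in 13-month HEM libraries had a lowest value of 5.45%, a median of 6.85% and a highest of 7.25%, against 5.51%, 5.77%, 5.23% and 4.63% in the 4 WT libraries of that age. At 3 months the 4 HEM libraries were at 4.54%, 5.37%, 5.06% and 6.37%, and the 4 WT libraries at 4.49%, 8.09%, 7.66% and 4.16%. Of the 8 HEM libraries at 13 months 7 lay above the highest WT library, whereas at 3 months the WT libraries lay on both sides of the HEM range. Methylation was lowest in the middle of this short gene. Of its 65 positions 61 averaged under 20%, and those that averaged 20% or more lay near the outer ends of the region.

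**Figure D1:**
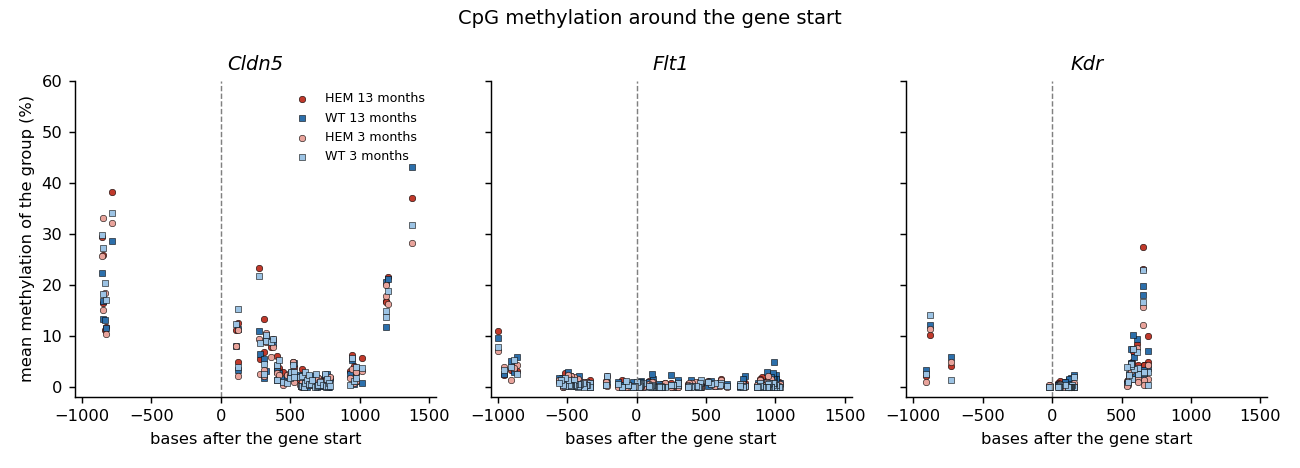
Mean methylation of each CpG position in percent (y axis) against its distance in bases from the RefSeq start (x axis, dashed line at the start) for Cldn5, Flt1 and Kdr, 1 point per group. Flt1 stays near 0 across the start, and Cldn5 and Kdr show positions above 20% away from the start.

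Cdh5, which encodes VE-cadherin of the endothelial adherens junction, lies on chromosome 8 at 104101613-104144504 and had 14 positions at each age, 13 of them shared. It was highly methylated, with a lowest value of 67.5%, a median of 75.6% and a highest of 78.9% in 13-month HEM libraries, against 81.4%, 74.2%, 73.2% and 65.6% in WT libraries. Most of these positions lie in a dense group of 10 positions at chr8:104142516-104142685, which averaged 89.6% ± 2.94 in the 8 HEM libraries and 89.0% ± 3.16 in the 4 WT libraries at 13 months (SD). Pecam1, which encodes the adhesion molecule CD31 between endothelial cells and also on some leukocytes, lies on chromosome 11 at 106654213-106715281 with 46 positions at 13 months. It was at 55.0% to 68.8% in 13-month HEM libraries with a median of 60.6%, and at 67.9%, 59.2%, 61.8% and 59.3% in WT libraries of that age. At 3 months the Pecam1 libraries lay closer together, at 56.4%, 57.1%, 56.9% and 57.6% in HEM and 56.6%, 59.9%, 62.1% and 55.9% in WT.

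Flt1 encodes VEGF receptor 1, which binds vascular endothelial growth factor and limits its action, and Kdr encodes VEGF receptor 2, the main signalling receptor for that factor. Both lie on chromosome 5, Flt1 at 147561604-147726438 with 217 positions at 13 months and Kdr at 75932827-75979072 with 77. In each gene the positions near the start carried little methylation, and those farther away carried much more on average. The farther positions of Flt1 lay from -1391 to 163305 bases after the start, so they include some before it. Their means ran from 0.356% to 97.5%, and those of the farther Kdr positions from 6.86% to 89.2%. The 109 Flt1 positions within 1000 bases of the start averaged 0.819% ± 0.177 (SD) in the 8 HEM libraries and 0.905% ± 0.414 in the 4 WT libraries at 13 months, and the 108 positions farther away averaged 59.2% ± 5.73 in HEM and 59.3% ± 4.01 in WT. The 42 Kdr positions within 1000 bases of the start averaged 3.36% ± 0.793 in HEM and 3.20% ± 0.779 in WT, and the 35 farther away 49.4% ± 6.77 in HEM and 48.7% ± 9.01 in WT. At 3 months the same parts were at 0.563% and 54.8% in HEM Flt1, 0.513% and 56.1% in WT Flt1, 2.04% and 41.95% in HEM Kdr, and 2.61% and 42.4% in WT Kdr. The start of either gene thus varied by fractions of a point to about a point between groups, and the positions farther away by several points.

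Over the whole region, Kdr ran from 20.1% to 29.2% with a median of 24.8% in 13-month HEM libraries, and stood at 28.6%, 22.7%, 25.8% and 18.4% in WT libraries. At 3 months Kdr was at 18.8%, 19.6%, 19.96% and 22.4% in HEM and 20.01%, 21.0%, 22.5% and 19.2% in WT, a narrower range. Flt1 ran from 25.7% to 33.9% in 13-month HEM libraries with a median of 30.3%, against 31.4%, 30.3%, 31.4% and 26.8% in WT. Tek encodes TIE2, the endothelial receptor for angiopoietins, and lies on chromosome 4 at 94739086-94874976 with 5 positions, all 18399 bases or more after its start. All 5 Tek positions averaged above 80%. At 3 months Tek was at 90.4%, 85.4%, 83.2% and 87.3% in HEM libraries and at 89.7%, 88.6%, 92.2% and 92.0% in WT libraries, and 3 of the 4 HEM libraries lay below the lowest WT library. The window of Tek overlaps the protein-coding gene Eqtn, and that of Pdgfrb overlaps the protein-coding gene Gm52351. Those of Cdh5, Flt1 and Kdr overlap the long noncoding RNA genes Gm29682, Gm35383 and Gm32727, in that order.

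Pdgfrb encodes the platelet-derived growth factor receptor beta, the receptor through which endothelial cells recruit pericytes. It lies on chromosome 18 at 61045127-61085067 with 32 positions at 13 months, of which 19 averaged between 20% and 80%. Its lowest value in 13-month HEM libraries was 43.2%, the median 54.0% and the highest 60.1%, and WT libraries were at 54.1%, 57.9%, 59.7% and 52.2%. Pdgfrb is a close neighbour of Csf1r, one of the microglia markers used below, but no CpG position belonged to both windows. Rgs5 encodes a regulator of G protein signalling that is abundant in pericytes, and lies on chromosome 1 at 169655501-169695813. Its 5 positions lay 8322 to 22801 bases after the start. In 13-month HEM libraries Rgs5 had a lowest value of 50.8%, a median of 74.5% and a highest of 84.1%, against 84.5%, 80.05%, 72.7% and 77.4% in WT libraries. The library at 50.8%, HEM replicate 8, was also the lowest of its group for Cdh5, Flt1 and Pdgfrb, and its mean over all CpG positions, 29.3%, was the lowest of the 20 libraries.

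**Figure D2:**
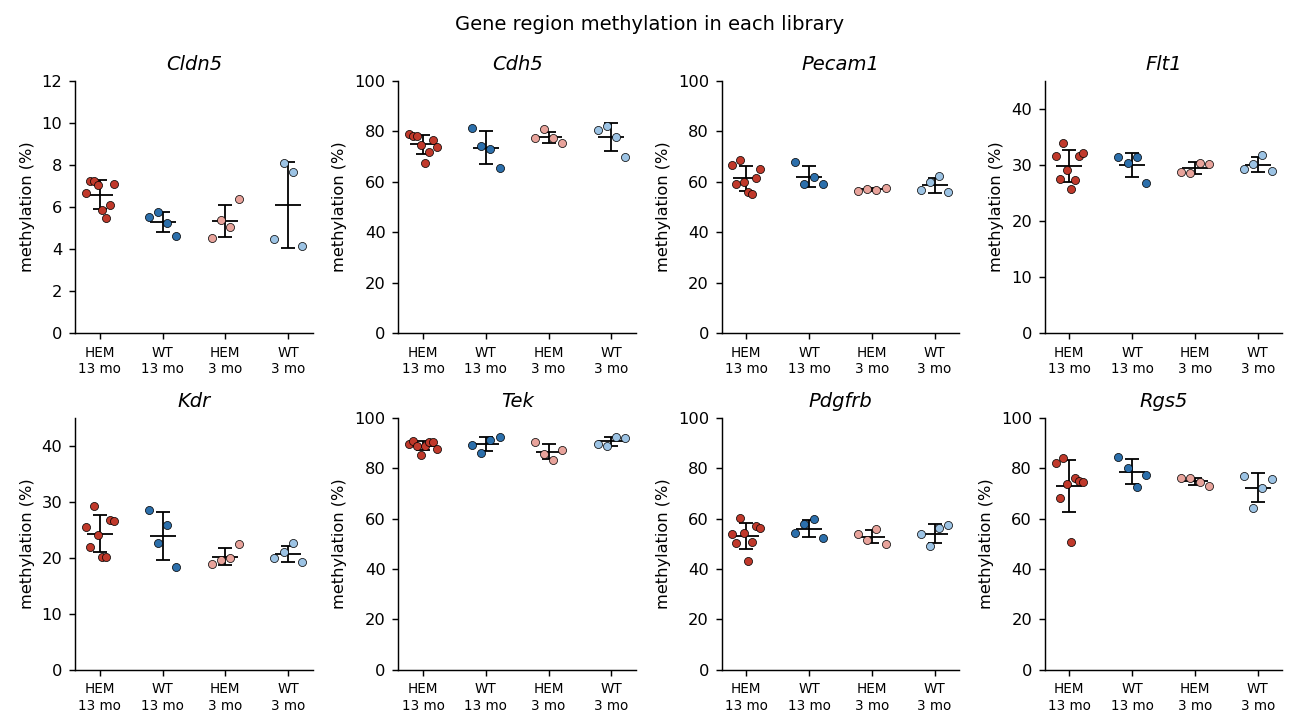
Mean methylation of each gene region in percent (y axis) in each library (points), with the mean and SD of each group (black), for HEM and WT mice at 13 and 3 months; the y axis ends at 12% for Cldn5, 45% for Flt1 and Kdr, and 100% for the other genes. The groups of every gene overlap, and the 13-month libraries of Pecam1, Flt1 and Kdr spread more widely than those of 3 months.

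Of the 460 positions listed at both ages, 245 (53.3%) averaged under 20%, 135 (29.3%) between 20% and 80%, and 80 (17.4%) above 80%. Over all CpG positions these shares were 60.6%, 16.7% and 22.7%. Intermediate levels were the rule in Pdgfrb (59.4% of its positions), Rgs5 (60%) and Pecam1 (54.3%), and low levels in Cldn5 (93.8%), Kdr (62.3%) and Flt1 (58.1%). The position with the widest range of all 460 was Flt1 chr5:147588726. It ran from 6.58% to 98.7% with a median of 52.0% in 13-month HEM libraries, and was at 55.3%, 0%, 62.3% and 50% in WT libraries. The 3-month HEM libraries were at 48.0%, 90.2%, 54.4% and 52.1%, and those of WT at 48.6%, 30.8%, 0.719% and 86.5%. Its 4 neighbours within the same short run each stayed at 75% or more in every library. Low, middle and high values at this position occurred in both genotypes.

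The first comparison asked whether α-synuclein overexpression went with a change of methylation in vascular genes at 13 months. Of 12393 gene regions tested with limma on log2 ratios, none was called (0%) at an adjusted p under 0.05 and a difference of at least 5 points, and 3.73% had an unadjusted p under 0.05. None of the 8 vascular genes was called, and 1, Cldn5, had an unadjusted p under 0.05. Cldn5 averaged 6.58% ± 0.698 in HEM and 5.29% ± 0.490 in WT (SD, n = 8 and 4), a difference of 1.30 points (95% interval 0.400 to 2.19), with a two-sided exact permutation p of 0.0121 and a limma p adjusted over all regions of 0.9996. The widest difference was that of Rgs5, at 73.0% ± 10.2 in HEM and 78.6% ± 4.94 in WT, and its interval ran from -17.0 to 5.73 points. For Flt1 the difference was -0.123 points (-3.53 to 3.29), for Kdr 0.413 points (-4.23 to 5.05), for Pecam1 -0.566 points (-6.54 to 5.41) and for Pdgfrb -2.80 points (-8.76 to 3.16). The median difference of the 8 genes was -0.345 points, against 0.00894 points over all regions, and 3 of the 8 were higher in HEM, against 50.6% of all regions.

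Single positions were tested in the same way. Of 453891 positions tested, 4 were called (0.000881%) at an adjusted p under 0.05 and a difference of at least 10 points, and none of the 255 tested positions of the 8 genes was among them. An unadjusted p under 0.05 was reached by 16 of the 255 (6.27%), against 5.82% of all positions. Of the 255, 126 (49.4%) were higher in HEM, against 49.1% of all. Cldn5 held 6 of the 16, out of 22 tested there, and all 6 were higher in HEM. The Cldn5 position of smallest p, chr16:18777158, lies 311 bases after the start. It averaged 13.4% ± 5.34 in HEM and 5.36% ± 10.7 in WT (SD, n = 8 and 4), with a limma p adjusted over all positions of 0.705. The WT mean came from a single library, and the rest were unmethylated there. Nearby chr16:18777124 had at 13 months a mean of 23.2% ± 5.81 in HEM against 10.99% ± 5.92 in WT, and at 3 months one of 9.29% ± 4.30 in HEM against 21.7% ± 8.70 in WT, so the sign of the difference was opposite at the 2 ages. The interaction of genotype and age at this position was 24.7 points (unadjusted limma p 0.000303, adjusted p 0.633), and none of the 249 positions of the 8 genes tested for it passed, where 0.000224% of all positions did. In Tek, chr4:94757688 averaged 89.4% ± 5.01 in HEM and 97.0% ± 4.29 in WT at 13 months, with an adjusted limma p of 0.707.

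The positions of smallest p in the other genes differed by 5.12 to 14.2 points at 13 months. Cdh5 chr8:104126558 averaged 47.7% ± 19.8 in HEM and 33.4% ± 30.4 in WT, and Kdr chr5:75962628 averaged 57.6% ± 11.4 in HEM and 43.7% ± 5.58 in WT. Pdgfrb chr18:61064917 was at 89.1% ± 12.6 in HEM and 98.8% ± 2.5 in WT, Flt1 chr5:147580912 at 86.4% ± 5.37 in HEM and 94.2% ± 3.93 in WT, Rgs5 chr1:169663823 at 72.0% ± 17.96 in HEM and 81.3% ± 13.3 in WT, and Pecam1 chr11:106655254 at 91.4% ± 5.21 in HEM and 96.5% ± 3.57 in WT. The groups overlapped at each of them.

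At 3 months none of 12682 gene regions was called (0%), and 3.90% had an unadjusted p under 0.05. Tek was the only vascular gene among these. It averaged 86.6% ± 3.03 in HEM and 90.6% ± 1.75 in WT (SD, n = 4 each), a difference of -4.06 points (95% interval -7.79 to -0.337), with an exact permutation p of 0.0857 and a limma p adjusted over all regions of 0.9995. The smallest p that 4 against 4 libraries allow is 0.0286. Within Tek the difference was widest at chr4:94757842, which averaged 80.4% ± 10.6 in HEM and 94.1% ± 2.67 in WT. Cldn5 averaged 5.34% ± 0.770 in HEM and 6.10% ± 2.06 in WT, so its difference, -0.765 points, had the opposite sign to that at 13 months. Of the 262 positions tested at 3 months, none was called, as in the whole table of 492283 (0%), and 4 (1.53%) had an unadjusted p under 0.05, against 4.53% of all. All 4 were lower in HEM, as were 154 of the 262, and 49.6% of all positions were higher.

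Other positions of smallest p at 3 months were Pdgfrb chr18:61061268, at 50.6% ± 9.58 in HEM and 64.3% ± 3.6 in WT, where the groups did not overlap, and Rgs5 chr1:169678291, at 77.7% ± 9.01 in HEM and 63.4% ± 9.17 in WT. Groups did not overlap at 2 of the 262 positions, 1 in Pdgfrb and 1 in Flt1. Of all label arrangements of 4 against 4 libraries, a share of 0.0286 puts the groups apart, and the share over all positions is not given. Pecam1 chr11:106709671 was at 12.3% ± 8.47 in HEM and 25.3% ± 8.33 in WT, Flt1 chr5:147683995 at 81.4% ± 9.48 in HEM and 93.8% ± 7.07 in WT, Kdr chr5:75977800 at 12.1% ± 4.65 in HEM and 22.9% ± 9.36 in WT, and Cdh5 chr8:104142560 at 88.1% ± 5.13 in HEM and 80.04% ± 3.92 in WT. Their limma p adjusted over all positions was 0.985 in each case.

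**Figure D3:**
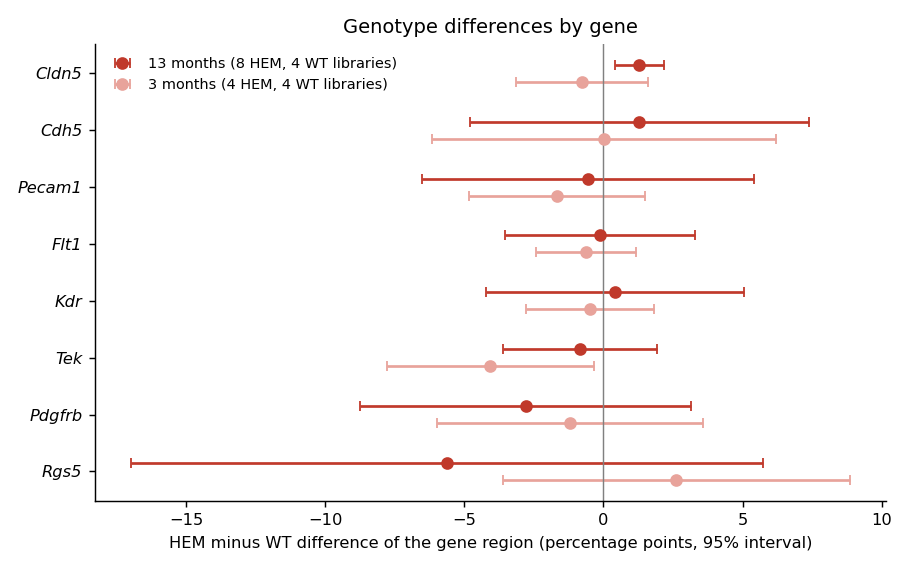
HEM minus WT difference in mean methylation of each gene region, in percentage points (x axis), with its 95% interval, at 13 months (dark, 8 HEM and 4 WT libraries) and 3 months (light, 4 HEM and 4 WT libraries). The intervals of Cldn5 at 13 months and Tek at 3 months do not reach 0, and neither gene passed the test over all regions.

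With age, no gene region was called in either genotype (0% of 12335 regions in HEM and 0% of 12326 in WT), on positions listed at both ages. In HEM mice 13.6% of all regions had an unadjusted p under 0.05, and 2 of the 8 vascular genes did. Both were higher at 13 months, and 9.96% of all regions tested had such a p and were higher at that age. Kdr averaged 24.3% ± 3.32 (SD, n = 8) at 13 months and 20.2% ± 1.55 (SD, n = 4) at 3 months, a difference of 4.11 points (95% interval 0.426 to 7.79), with an exact permutation p of 0.0424 and an adjusted limma p of 0.337. Cldn5 averaged 6.58% ± 0.698 at 13 months and 5.34% ± 0.770 at 3 months, with an exact permutation p of 0.0242 and an adjusted limma p of 0.296. Pecam1 was at 61.5% ± 4.97 at 13 months and 56.4% ± 0.367 at 3 months in HEM, a difference of 5.03 points with an exact permutation p of 0.0687. In WT mice the sign was the same for Kdr (23.9% ± 4.36 at 13 months and 20.7% ± 1.45 at 3 months, exact permutation p 0.229) and Pecam1 (62.0% ± 4.06 and 57.9% ± 2.66 at the same ages, exact permutation p 0.114), and opposite for Cldn5.

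Values beyond these genes also differed between the ages. The mean over all positions listed at each age was 31.0% at 13 months and 31.6% at 3 months in HEM, and likewise 31.0% and 31.6% in WT. Its sign was thus opposite to that of Kdr and Pecam1. In HEM mice 66.0% of all regions were higher at 13 months, and the 4 microglia marker regions were lower, with differences of -11.8 points for Csf1r, -7.16 for Tmem119, -7.02 for C1qa and -5.72 for Irf8. The 3-month files also list another set of CpG positions than the 13-month files, so age and a separate processing of the 2 sets of files cannot be told apart. Of single positions, none of the 250 tested in the 8 genes was called in HEM and none of the 244 in WT, where 0.0305% and 0.0183% of all positions were called. In HEM 175 of the 250 (70%) were higher at 13 months, against 56.7% of all positions, and in WT 174 of the 244 (71.3%), against 56.7%. The interaction of genotype and age was not called for any of 12338 regions (0%), and its smallest unadjusted limma p among the 8 genes was 0.0659, for Cldn5 (2.06 points, adjusted p 0.910).

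The next question was whether the vascular genes followed the methylation of microglia genes from library to library. The marker mean, the average of the regions of Tmem119, Csf1r, C1qa and Irf8, differed widely between libraries of 1 group, from 37.1% to 55.7% in 13-month HEM, 39.9% to 55.9% in 13-month WT, 48.5% to 57.7% in 3-month HEM and 45.7% to 54.4% in 3-month WT. Of 7 other microglia gene regions tested, 6 correlated with it past the test at 13 months, among them Trem2 (r = 0.960). Of all 12389 regions 5.06% passed. None of the 8 vascular genes did, at either age.

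At 13 months, over 12 libraries, r was -0.475 for Flt1 (Spearman rho -0.455, permutation p 0.117 and 0.141, adjusted p 0.342), -0.426 for Kdr (rho -0.462, permutation p 0.164 and 0.133, adjusted p 0.406) and -0.416 for Pdgfrb (rho -0.559, permutation p 0.179 and 0.0626, adjusted p 0.424). Without the 2 libraries farthest from the median marker mean, HEM replicates 11 and 6, these fell in size to -0.240, -0.168 and -0.214. The other 5 genes had r between -0.2505 (Pecam1) and 0.159 (Rgs5). Leaving out HEM replicate 8 alone, the library of lowest Pdgfrb level and lowest mean over all positions, took Pdgfrb to -0.849 with an adjusted permutation p of 0.0393, and it was the only one of the 8 genes that passed in any set of 11 libraries. That set had the most regions past the test of the 12 such sets, 632, against 627 of 12389 (5.06%) with all 12 libraries. The median r of the 8 genes was -0.223, against -0.171 over all regions, and 5 of 8 were below 0, against 62.6% of all.

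At 3 months, over 8 libraries, 0 of 12678 regions passed, and 17.0% had an unadjusted permutation p under 0.05. Cdh5 had the highest r of the vascular genes, 0.685 (rho 0.50, exact permutation p 0.0503 and 0.216, adjusted p 0.296), and Pdgfrb the lowest, -0.519 (rho -0.619, exact permutation p 0.183 and 0.115, adjusted p 0.507). Flt1 and Kdr had r of -0.481 and -0.358. Without the 2 libraries farthest from the median marker mean, HEM replicates 1 and 2, r was 0.925 for Cdh5, -0.711 for Pdgfrb, 0.0405 for Flt1 and 0.146 for Kdr, so the negative sign of Flt1 and Kdr at 3 months rests on those libraries. Of the 8 genes 6 had r below 0 at 3 months, against 54.6% of all regions. Over the 20 libraries of both ages pooled, Flt1 (r = -0.575, rho -0.508, permutation p 0.00862 and 0.0239, adjusted p 0.0363) and Kdr (r = -0.554, rho -0.496, permutation p 0.0116 and 0.0274, adjusted p 0.0449) passed the test, as did 27.1% of all regions, but neither passed within an age. Without 13-month HEM replicates 11 and 6 the pooled r was -0.382 for Flt1 (permutation p 0.117) and -0.353 for Kdr (permutation p 0.150). The sign was kept and the size fell. Those libraries were the farthest from the median marker mean, so leaving them out also narrows its range. The pooled r also includes any difference between the ages in both levels.

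Means over a gene can hide stretches that move in opposite directions, so runs of at least 3 positions no more than 300 bases apart were fitted on the marker mean with genotype in the model, over all such clusters of the genome. Slopes and their SE were taken on percentages, and the limma p on the log2 ratio. The 8 genes had 42 clusters, 38 of them tested at 13 months. Of these 38, 4 passed the test at 13 months (10.5%), against 4.64% of 71175 clusters, and 28 of the 38 slopes (73.7%) were below 0, against 58.1% of all. The 4 lie in Kdr, Pecam1 and Pdgfrb. The r, rho and permutation p given for them below are unadjusted and were computed only because their slopes had passed. At an age where a cluster passed, these values come from the same libraries, so they describe the cluster and are no second test of it. Of the 38 clusters 3 passed with a slope below 0, against 1.57% of all clusters, and 1 passed with a slope above 0, against 3.06%.

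Inside Kdr, the cluster of 8 positions at chr5:75962628-75962712, 15743 to 15827 bases after the start, ran from 32.2% to 61.2% in 13-month HEM libraries and stood at 41.2%, 41.6%, 53.0% and 34.4% in WT libraries. It lost 1.17 points for each point of marker mean (SE 0.220, adjusted limma p 0.0202), with r = -0.873 (rho -0.916, permutation p 0.00037 and 0.00014) over 12 libraries and -0.784 without HEM replicates 11 and 6. Within the 8 HEM libraries r was -0.921 (exact permutation p 0.00102). At 3 months its slope was -1.05 (SE 0.422, adjusted limma p 0.335). The highest libraries were those of lowest marker mean, HEM replicates 6 and 11 at 13 months.

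Near the far end of Kdr, 44606 to 44703 bases after the start, 6 positions at chr5:75933752-75933849 took the other direction. They ran from 0.775% to 8.58% in 13-month HEM libraries and were at 22.7%, 7.67%, 1.0% and 7.96% in WT libraries. The gain was 0.585 points per point of marker mean (SE 0.192, adjusted limma p 0.0146 on the log2 ratio). With the test on percentages this cluster did not pass at 13 months. At 3 months the 4 HEM libraries were at 17.6%, 17.1%, 7.59% and 2.43% and the 4 WT libraries at 9.52%, 15.5%, 7.05% and 1.90%, with a slope of 1.46 (SE 0.239, adjusted limma p 0.0486). At 3 months 0.374% of clusters passed, 0.341% with a slope above 0 and 0.0338% below 0, and of the vascular clusters tested this 1 passed. Of the 37 vascular clusters tested at 3 months 23 slopes (62.2%) were below 0, against 51.9% of all. Its r was 0.719 over the 12 libraries of 13 months (rho 0.888, permutation p 0.00126 and 0.0002) and 0.947 over the 8 of 3 months (rho 0.905, exact permutation p 0.000422 and 0.00456), and 0.730 and 0.880 without the 2 farthest libraries of each age. Leaving out any 1 library at 3 months took the adjusted p to between 0.0796 and 0.140.

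In Pecam1, 6 positions at chr11:106709555-106709709 ran from 16.2% to 54.8% in 13-month HEM libraries and stood at 28.6%, 33.2%, 44.8% and 27.8% in WT libraries. Their slope was -1.49 points per point (SE 0.291, adjusted limma p 0.0102), with r = -0.864 (rho -0.769, permutation p 0.0004 and 0.00483) and -0.753 without the 2 farthest libraries. At 3 months the 4 HEM libraries were at 12.8%, 18.3%, 25.4% and 26.6% and the 4 WT libraries at 20.6%, 24.1%, 37.9% and 28.8%, and the slope was -1.31 (SE 0.445, adjusted limma p 0.174). In both ages the libraries of highest marker mean were among the lowest of this cluster.

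In Pdgfrb, 5 positions at chr18:61064865-61064933 lay between 78.2% and 91.2% in 13-month HEM libraries and at 80.8%, 81.3%, 94.3% and 82.5% in WT libraries. The slope was -0.660 (SE 0.166, adjusted limma p 0.0263), with r = -0.767 (rho -0.650, permutation p 0.00403 and 0.0248) and -0.632 without the 2 farthest libraries, and at 3 months it was -0.206 (SE 0.337, adjusted limma p 0.787) with r = -0.173. With 1 library left out at 13 months the slopes stayed within -0.838 to -0.536 for Pdgfrb, -1.32 to -0.980 for the cluster inside Kdr, 0.381 (without WT replicate 1, with the call kept) to 0.680 for the far end of Kdr and -1.61 to -1.31 for Pecam1, but some of the calls were lost. For Pdgfrb the adjusted p was 0.0637 without HEM replicate 3, 0.0661 without HEM replicate 6, 0.0882 without HEM replicate 11 and 0.169 without WT replicate 6. For the cluster inside Kdr it was 0.0545 without HEM replicate 6, 0.120 without HEM replicate 10, 0.0642 without HEM replicate 11 and 0.0819 without WT replicate 6. For the far end of Kdr it was 0.0637 without HEM replicate 11 and 0.107 without WT replicate 6, and for Pecam1 0.0720 without HEM replicate 10 and 0.0523 without HEM replicate 11. Since clusters of 1 library share its mixture of cells, the 4 are not independent of each other.

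**Figure D4:**
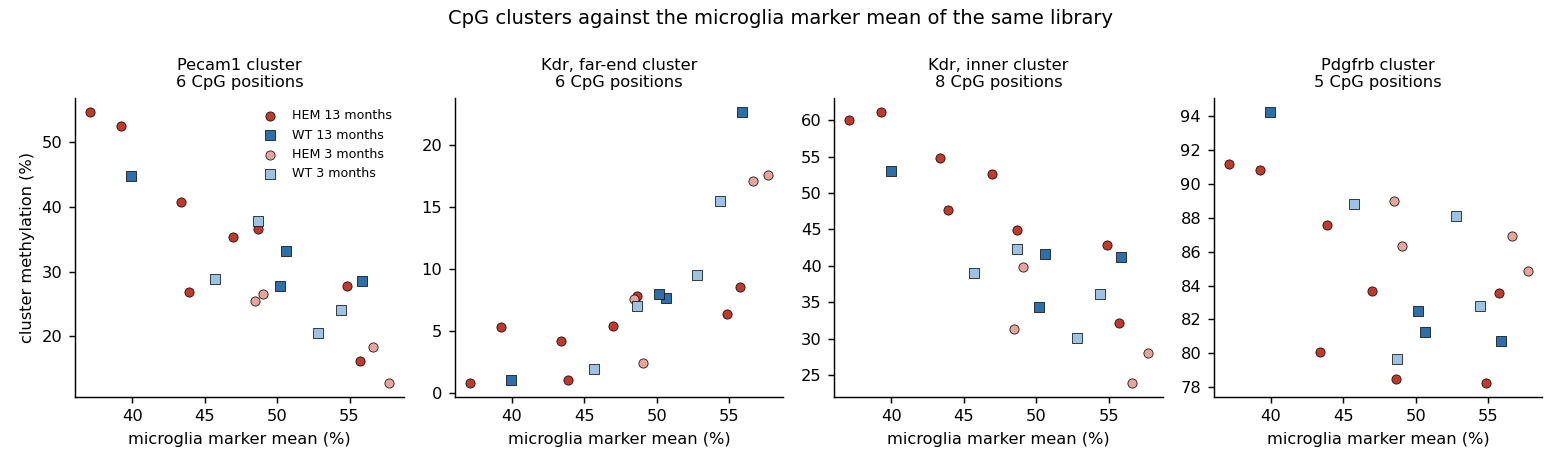
Methylation of the 4 clusters that passed at 13 months (y axis, percent, own scale in each panel) against the microglia marker mean of the same library (x axis, percent), 1 point per library of HEM and WT mice at 13 and 3 months. Over the 13-month libraries Pecam1, Pdgfrb and the cluster inside Kdr are lower where the marker mean is higher, and the far end of Kdr is higher there.

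None of these clusters was called between genotypes. At 13 months the cluster inside Kdr averaged 49.5% ± 9.66 in HEM and 42.6% ± 7.70 in WT (SD, n = 8 and 4), and that of Pecam1 36.4% ± 13.0 in HEM and 33.6% ± 7.83 in WT, with adjusted limma p of 0.914 and 0.978. None of 71175 clusters was called at 13 months and none of 71038 at 3 months (0% each), where 5.54% and 4.43% had an unadjusted p under 0.05. With age in HEM mice the cluster inside Kdr was at 49.5% ± 9.66 at 13 months and 30.8% ± 6.76 at 3 months, a difference of 18.7 points, and that of Pecam1 at 36.4% ± 13.0 and 20.8% ± 6.47 at the same ages, a difference of 15.6 points. Their adjusted limma p was 0.205 and 0.295, and 0.00281% of clusters were called in this comparison.

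Flt1 had the most clusters, and none passed. Of its 16 tested at 13 months 14 (87.5%) had a slope below 0, against 58.1% of all clusters, and the 16 slopes ran from -1.40 to 0.754. At 3 months 10 of its 17 tested clusters (58.8%) had a slope below 0, against 51.9% of all. Its clusters share the same libraries, so they are not independent of each other. Cdh5 held the steepest slope at 3 months, 3.15 points per point over 3 positions at chr8:104110653-104110823, with an adjusted limma p of 0.0715, and 0.670 at 13 months with an adjusted p of 0.329. Rgs5, Tek and Cldn5 had 1 tested cluster each at 13 months, with slopes of 0.252, -0.0989 and 0.334. Taken singly, 33 of 255 positions (12.9%) had an unadjusted p under 0.05 with a slope below 0 at 13 months, against 7.84% of all positions, and 12 (4.71%) with a slope above 0, against 5.98%. At 3 months 15 of 262 (5.73%) had such a p with a slope below 0, against 4.29% of all, and 15 (5.73%) with a slope above 0, against 4.86%. None passed the test at either age, as 0.399% of all positions did at 13 months and 0% at 3 months.

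**Figure D5:**
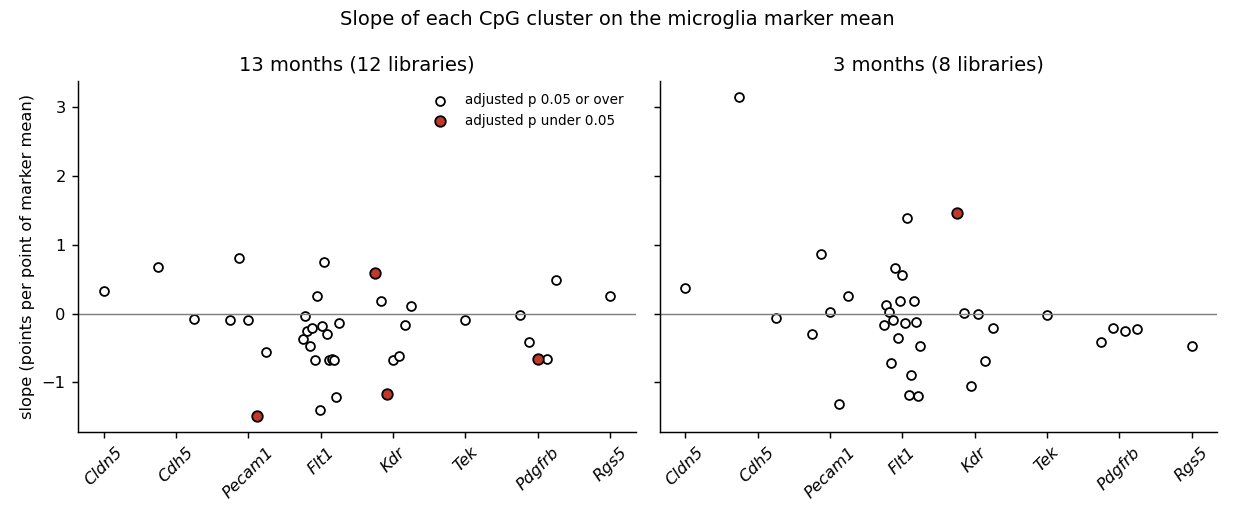
Slope of each CpG cluster on the marker mean, in points per point (y axis), by gene (x axis), at 13 months over 12 libraries and at 3 months over 8 libraries; filled points passed the test over all clusters. At 13 months 4 clusters passed, with 3 slopes below 0 and 1 above, and at 3 months the far end of Kdr passed.

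Further genes of the vessel wall were read from 3 lists. Of 50 brain endothelial and barrier genes 34 were tested, of 30 pericyte and smooth muscle genes 26, and of 40 vessel growth signalling genes 36 at 13 months and 37 at 3 months. None was called between HEM and WT at either age, where 0% of all regions were called. The median differences at 13 months were -0.0706, -0.490 and 0.186 points in the order of the lists. The smallest unadjusted p were those of Higd1b, a pericyte gene, at 71.3% in HEM and 86.2% in WT, Cldn12, a claudin, at 8.29% in HEM and 7.05% in WT, and Angpt1, a ligand of TIE2, at 47.2% in HEM and 45.9% in WT. Next came Adgrl4, an endothelial adhesion receptor, at 74.0% in HEM and 79.9% in WT, Apln, the ligand apelin, at 13.7% in HEM and 12.0% in WT, and Myh11, a smooth muscle myosin, at 70.2% in HEM and 73.0% in WT. All had an adjusted limma p of 0.9996. With age none of these genes was called either. Of the 3 lists in turn, 25 of 34, 15 of 26 and 32 of 36 genes were higher at 13 months in HEM, against 66.0% of all regions, and 28 of 34, 25 of 26 and 27 of 36 in WT, against 63.9%.

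At 3 months the median differences of the 3 lists were -0.302, 0.130 and -0.217 points. The genes of smallest p were Atp13a5, at 82.4% in HEM and 79.9% in WT, Apln, at 13.0% in HEM and 14.5% in WT, and Podxl, the sialomucin podocalyxin, at 11.6% in HEM and 12.3% in WT. Cgn, the tight junction protein cingulin, was at 36.7% in HEM and 35.2% in WT, Angpt4 at 73.3% in HEM and 75.4% in WT, and Pdlim3 at 69.8% in HEM and 68.5% in WT. Apln was thus higher in HEM at 13 months and lower at 3 months, and neither difference passed the test (adjusted limma p 0.9995 at 3 months).

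In their relation to the marker mean, 4 genes of these lists passed at 13 months. They were 1 of 34 endothelial, 0 of 26 pericyte and 3 of 36 growth signalling genes. Of all regions 5.06% passed, 3.24% with r above 0 and 1.82% with r below 0. Vegfa, the growth factor that Flt1 and Kdr bind, had r = -0.870 (adjusted permutation p 0.0227), Reck r = -0.817 (0.0323) and Adgra2 r = -0.795 (0.0450). The products of Reck and Adgra2 act together as a receptor for WNT7 ligands in brain vessels. Cgn had r = 0.787 (adjusted permutation p 0.0360). At 3 months none passed, and r was -0.804 for Vegfa and -0.812 for Adgra2. With 1 library left out r stayed within -0.893 to -0.798 for Vegfa, -0.849 to -0.737 for Reck, -0.819 to -0.652 for Adgra2 and 0.654 to 0.858 for Cgn, but most of the calls were lost. Without 1 library the adjusted permutation p ran from 0.0591 (HEM replicate 8 left out) to 0.290 (HEM replicate 11) for Adgra2 and from 0.0592 (HEM replicate 10) to 0.283 (HEM replicate 11) for Cgn, so any library left out ended both calls. On deviations from group means it was 0.0545 for each of the 2, on the gene alone 0.125 for Adgra2 and 0.102 for Cgn, and for Adgra2 0.0605 without Tmem119 and 0.0573 without Csf1r in the marker mean. For Reck it was 0.0474 without HEM replicate 8 and 0.0582 to 0.193 without any other library, and for Vegfa it was 0.0490 without HEM replicate 1, 0.0254 without HEM replicate 8 and 0.0558 to 0.132 without any other library. The median r at 13 months was -0.436 over the 36 growth signalling genes, -0.218 over the 34 endothelial genes and -0.156 over the 26 pericyte genes, against -0.171 over all regions. Genes of other brain cells had medians of -0.368 over 7 neuron genes, 0.126 over 7 astrocyte genes and -0.423 over 7 genes of the oligodendrocyte lineage. Among them only Aldh1l1, which encodes an enzyme of astrocyte folate metabolism, passed the test (r = 0.854, adjusted permutation p 0.0148). The astrocyte genes were split, with r above 0 in 4 of 7 and below 0 in 3. An unadjusted permutation p under 0.05 was reached by 5 of the 7. Beside Aldh1l1 these had r of 0.741 (Gfap), -0.773 (Slc1a2), -0.698 (Aldoc) and -0.680 (Aqp4).

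Each vascular gene was also set beside all gene regions on other chromosomes, by Pearson's r of the deviations from the group means over the 20 libraries. The closest was Sgms1 for Flt1 (r = 0.968), Col25a1 for Pdgfrb (0.945), Ddx39a for Pecam1 (0.939), Erg28 for Kdr (0.932) and Pald1 for Rgs5 (0.930). For Cdh5 it was Papolb (0.856), for Cldn5 Pls3 (0.780) and for Tek Cfb (0.777). Each is the highest of the 11324 to 12001 regions compared, and all regions of a library share its cell mixture and its overall level.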

How the data were processed

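DNA methylation was measured in 20 libraries by reduced representation bisulfite sequencing. The authors deposited the percent methylation of every CpG position listed per library. Bowtie2, methylKit and mm10 are named per the submitters' processing notes, and versions are not given in the sources used here. The files hold no read counts, so the depth is unknown, no interval that needs it is given, and tests ran on percentages. Tables of the whole series held 21 value columns that were not used. Groups came from the labels, and per the study's text each library is 1 mouse.

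Positions on chromosomes 1 to 19, X and Y were used. Gene regions (1 kb flanks, at least 3 positions), single positions and clusters with a mean of 5% to 95% were tested on log2((percent + 1) / (100 - percent + 1)) by limma 3.58.1 (R 4.3.3), with Benjamini-Hochberg adjustment over all features. A call needed an adjusted p under 0.05 and 5 points for regions and clusters or 10 points for positions. Age contrasts and the interaction used positions listed at both ages. Intervals of differences are limma's 95% intervals on the percent scale. Exact permutation tests are two-sided, as are correlation tests, which drew 100000 permutations for 12 or 20 libraries and were exact for 8. Their p-values were adjusted over all gene regions, and for clusters the adjusted p is limma's. Cluster slopes used the marker mean over positions listed at both ages. The slopes of clusters and single positions, and the SE, are from fits on percentages, and their p is limma's on the log2 ratio. Other software was Python 3.11.15, numpy 2.4.6, pandas 2.3.3, scipy 1.17.1 and matplotlib 3.10.9. The methods were tested on simulated data. Promoter sequences and gene positions are from RefSeq, GRCm38.p6, and 99.9% of positions listed in promoters fell on a C or G of a CG.

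The 8 genes, the gene lists and the tests were chosen with earlier results of these data known, and cluster and single-position slopes were added after seeing the data. Text names all 8 genes, for each the position of smallest p in each genotype comparison and the closest region on another chromosome, the 2 genes of smallest p of each list and genotype comparison, and every call. Other positions, list genes and clusters were named after their values were seen. Alternatives covered the scale, offset, filters, variance model, minimum difference, gene alone, 5 kb flanks, merged strands, a marker covariate, a replicate block and each library or marker left out.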

Additional observations from a re-analysis of the deposited data

Results flagged for a closer look

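In groups of 4 to 10 libraries, 1 value was called far from the rest where its gap to the nearest other value took up most of the group's range (Dixon's 95% limit). Of 84 groups examined, over the gene regions, the marker mean, the 4 clusters and the widest-ranging position of each gene, 6 (7.14%) held such a value. Chance gives about 1 in 20 for groups not chosen by their values, a rate that does not apply to these clusters and positions, which were chosen from the same values and hold all 6. The Pdgfrb cluster at 61064865 to 61064933 was at 94.3% in WT replicate 6 at 13 months, and the next WT library was at 82.5%. Tek position 94757842 was at 86.2% in WT replicate 1 at 13 months, and the others were at 94.6% or more. Cdh5 position 104110785 was at 54.9% in HEM replicate 3 at 13 months, and the next was at 37.4%. Flt1 position 147588726 was at 90.2% in HEM replicate 2 at 3 months, and the next was at 54.4%. Kdr position 75934404 was at 87.3% in WT replicate 1 at 13 months, next to 45.9%, and at 30.0% in WT replicate 3 at 3 months, next to 45.3%. No gene region of the 8 genes and no marker mean held such a value.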

How the results depend on the processing

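In the genotype and age comparisons none of the 8 gene regions was called under the alternatives run. Between ages in HEM, Cldn5 reached an adjusted limma p of 0.0326 on positions listed at each age, with 1.25 points, under the 5 a call needed. All 65 Cldn5 positions were listed at both ages, so its values were unchanged in that setting, and the fit over the other regions differed. Differences that changed sign were those without a call. At 13 months the genotype difference became -0.264 points for Kdr with the marker mean as covariate, and with the replicate block, or on the same 3 pairs without it, 1.80 for Rgs5, 2.09 for Pecam1, 1.67 for Flt1 and 0.685 for Pdgfrb. At 3 months it became -0.859 (5 kb flanks), -1.70 (covariate) and -4.15 (block or its pairs) for Cdh5, and 3.58 (block or its pairs) for Pdgfrb. Between ages, Flt1 in WT became -0.115 and the Cdh5 interaction 1.27 on positions listed at each age, Cdh5 0.939 in WT and Pdgfrb -0.923 in HEM with the covariate, and Cdh5 0.635 in HEM and 0.867 in the interaction with 5 kb flanks. Same-numbered deviations correlated at 0.171, 0.409 and 0.0607 at 13 months and 0.112 and -0.279 at 3 months. These few pairs were not set beside pairs of other numbers, so whether the replicate numbers pair the libraries cannot be told. The block left 0 called positions at 13 months and changed no call of the 8 genes. The interaction of Cldn5 on the gene alone could not be given. The cause of the other changes was not tested, and with no read counts it cannot be told how depth limits a value.

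Gene regions called over the genome numbered 1304 in HEM and 1150 in WT between ages when each age kept its own positions, where by construction the 2 ages differ in some positions. They numbered 5 with no mean filter and 1 with a variance trend in HEM, and 1 for the interaction with the covariate. Called positions at 13 months became 0 on the percent scale, with offset 5 and on the paired libraries, 2 with own variances or a variance trend, and 14 with no minimum difference; at 3 months 12 with no mean filter and 1 with own variances. Between ages in HEM they became 20 (percent scale), 84 (no mean filter) and 79 (own variances), and in WT 38 (percent scale) and 43 (own variances). The interaction had 0 (percent scale, offset 5, own variances, variance trend) or 12 (no mean filter).

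Beside the changes without the 2 farthest libraries given above, the relation to the marker mean changed sign for Tek at 13 months -0.00449 without Tmem119, -0.0189 on deviations and -0.0186 on the gene alone, and at 3 months 0.100 and 0.0728; for Cldn5 at 3 months -0.0636 without C1qa; for Pecam1 at 3 months 0.0438 on deviations. Regions past the test at 13 months became 304 on the gene alone. For clusters at 3 months 1144 passed on the percent scale and 0 with the library mean as covariate, where the far end of Kdr kept its slope, 1.46, with an adjusted limma p of 0.0699. On the percent scale its 13-month adjusted p was 0.102.

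Leaving out each library in turn gave ranges that crossed 0 between ages in HEM of Cdh5 -1.03 to 0.396 and Rgs5 -3.41 to 1.35, between ages in WT of Cdh5 -2.66 to 1.78 and Tek -1.86 to 0.314, between genotypes at 13 months of Cdh5 -1.38 to 3.91, Flt1 -1.17 to 0.468, Kdr -1.40 to 1.99, Pecam1 -1.61 to 1.38 and Tek -2.07 to 0.104, between genotypes at 3 months of Cdh5 -2.54 to 1.53, Kdr -1.23 to 0.130 and Rgs5 -0.0693 to 4.11, for the interaction of Cdh5 -2.34 to 2.11, Flt1 -0.564 to 1.07, Kdr -0.908 to 2.48 and Pecam1 -0.195 to 2.80, for r at 13 months of Cdh5 -0.0447 to 0.232, Cldn5 -0.241 to 0.111, Rgs5 -0.0191 to 0.231 and Tek -0.129 to 0.139, for r at 3 months of Cldn5 -0.223 to 0.290, Pecam1 -0.154 to 0.314, Rgs5 -0.329 to 0.548 and Tek -0.360 to 0.345. Regions called over the genome with 1 library left out numbered 0 to 5 between ages in HEM and 0 to 1 for the interaction. Positions called numbered 3 to 45 at 13 months (most without WT replicate 1), 0 to 57 at 3 months (most without WT replicate 1), 63 to 181 between ages in WT and 0 to 6 for the interaction (most without 13-month WT replicate 6 in both). Regions past the test with the marker mean numbered 70 to 632 at 13 months, and clusters 1250 to 5147 at 13 months, most without HEM replicate 8 in both, and 0 to 3 at 3 months.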
